A study of Gallus gallus with 2 samples.

Results

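The fatty acid-binding protein (FABP) family was followed in the back skin of Lueyang chickens with black skin (BS) and with white skin (WS). Its members were taken by symbol from the authors' table of all loci, in which each of the 7 symbols sought (*FABP1* to *FABP7*) was carried by exactly 1 of 22853 loci. Of these 7 loci, 6 overlap no other locus. The family was selected on the FPKM of *FABP3* in these same libraries, so the levels below are descriptions and carry no test. The BS group was 16-week-old female Lueyang chickens with black skin, and the WS group was females of the same breed and age with white skin. A skin piece 8 mm across was taken from the left back of 5 birds per color, and RNA of 3 birds per color was pooled into 1 RNA-Seq library. With 1 library per color, neither the spread between birds nor a p-value can be had, and every difference below is between 2 pooled libraries.

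FABPs are small cytosolic proteins that hold a long-chain fatty acid or a related lipid inside a barrel of beta strands. They carry these lipids between membranes, storage droplets, mitochondria and the nucleus, where some pass them to nuclear receptors of the PPAR family. In mammals each member is named for the tissue in which it is abundant, with heart and skeletal muscle for FABP3, fat cells and macrophages for FABP4, epidermis for FABP5 and developing brain and glia for FABP7. FABP1 is the liver form, FABP2 the intestinal form and FABP6 the ileal bile acid carrier. Skin holds epidermis, fat, nerves and slips of muscle, so several of these cell types contribute RNA to a skin sample.

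Expression was given by the authors in FPKM, that is, fragments scaled by the length of the exon model and by the number of mapped reads. Those exon lengths were not at hand, so levels set side by side between genes below are to be read with caution. Some short loci stand very high, among them *ATPIF1*, with a span of 144 bp, at 68836 FPKM in BS and 24869 in WS. Fold changes here are log2((FPKM in BS + 1)/(FPKM in WS + 1)), and a locus was counted only if it reached 1 FPKM in at least 1 library. The table holds no counts of reads, so the depth behind a single value is unknown and no counting interval is given. Of the 15020 loci that passed, 4.61% were higher in BS by 2-fold or more and 5.69% lower by that margin, or 693 and 855 loci and 10.3% in both directions, and 43.9% were higher in BS by any margin. With the FPKM sums apart from the 50 most abundant loci set equal, which shifts BS by 0.13 on the log2 scale, the counts were 883 higher and 682 lower. A single locus of 311 bp held 30.7% of the FPKM sum in BS and 54.7% in WS. Most melanocyte markers followed the color labels, with 6 of 8 counted genes at least 2-fold higher in BS and a summed level of 153 FPKM in BS, against 62.3 in WS. Of the 6, *TYR* (8.17 FPKM in BS, 0.957 in WS) and *GPR143* (2.77 in BS, 0.684 in WS) passed the filter only through BS. Their direction was therefore fixed by the filter. *KIT* was higher in BS by a log2 fold change of 0.85, and *MITF* was lower, with 26.9 FPKM in BS and 30.4 in WS. *PMEL*, on a linkage group, and *TYRP1*, *MLANA* and *SLC45A2*, on chromosome Z, were at 0 in both. All loci on 24 chromosomes and contigs were listed at 0 in both libraries, and a 0 there is a listed value only.

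The 7 members stood in the same order in both libraries, *FABP3* highest, then *FABP4*, *FABP5*, *FABP7*, *FABP6*, *FABP1* and *FABP2*. They spanned over 6 orders of magnitude on the FPKM scale. Their summed level was 192196 FPKM in BS and 138476 in WS, and *FABP3* alone made up 98.9% of that sum in each library. Without *FABP3*, the other 6 members summed to 2051 FPKM in BS, against 1581 in WS. No error can be put on the gaps between neighbors in this order. *FABP6* and *FABP1* were nearly level in BS, with 6.37 and 6.35 FPKM, and 6.14-fold apart in WS, with 4.98 and 0.812 FPKM.

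**Figure D1:**
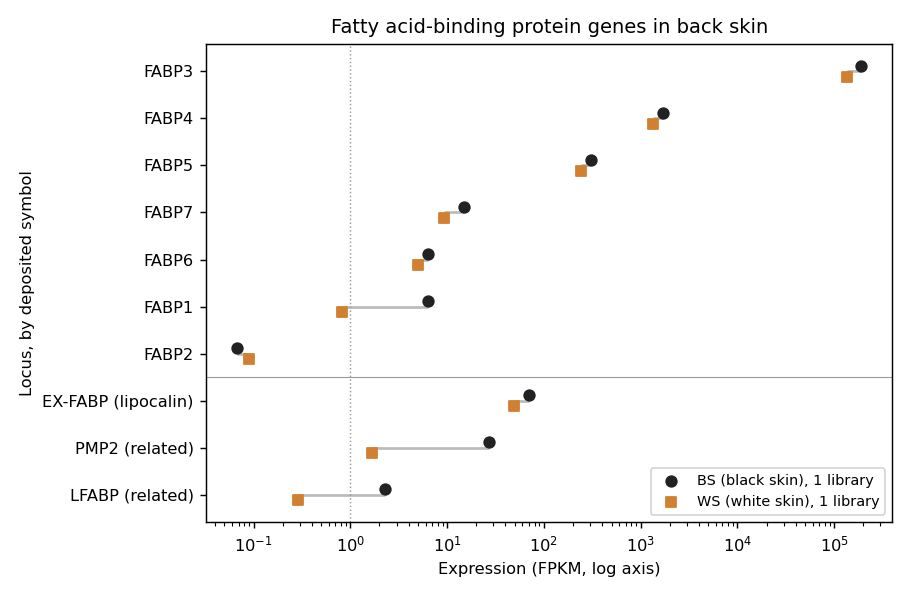
Expression (FPKM, log axis) of the 7 FABP genes and, under the line, of 3 other loci whose names or positions relate to the family; circles are the single BS library and squares the single WS library, and the dotted line marks 1 FPKM. *FABP3* sits at 190145 FPKM in BS and 136895 in WS, far right of *FABP4* at 1715 and 1326 FPKM, and the pairs of *FABP1*, *PMP2* and *LFABP* are the widest apart.

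*FABP3*, the heart-type fatty acid carrier, stood at 190145 FPKM in BS, against 136895 in WS. It ranked second among all loci in both libraries, behind only the 311 bp locus named above. Its level was 1.39-fold higher in BS, a log2 fold change of 0.47. Its share of the FPKM sum was 8.50% in BS and 3.82% in WS, and 12.3% and 8.44% once the 311 bp locus was left out. The locus (XLOC_011314) lies on chromosome 23 from 564950 to 568772, a span of 3822 bp, and overlaps no other locus. The flanking loci were not abundant. *ZCCHC17*, on one side, had 16.7 FPKM in BS and 20.0 in WS, and *PKIB*, on the other side, had 1.36 FPKM in BS, against 0.897 in WS. *FABP3* exceeded *FABP4*, the next member, 111-fold in BS and 103-fold in WS, on a scale that rests on exon lengths that were not at hand.

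Muscle is the tissue best known for *FABP3* in mammals and birds. Of 10 counted skeletal muscle markers, 8 were higher in BS by any margin, 2 of them at least 2-fold, and 1 was at least 2-fold lower. The median of the list was 0.86, and its summed level was 28092 FPKM in BS and 16168 in WS, with *TNNC2*, on an unplaced contig, listed at 0 in both. Most of that sum was *ACTA1*, with 17804 FPKM in BS and 9387 in WS, in a locus that overlaps 3 others. *MYL1* and *TNNT3* were 1.93-fold and 1.92-fold higher in BS. *DES*, in a locus that overlaps 14 others, was lower, with 2208 FPKM in BS and 2372 in WS. *MYH1*, a fast myosin heavy chain, had 63.5 FPKM in BS, against 4.27 in WS, whereas *CSRP3*, a muscle LIM protein, had 31.6 FPKM in BS and 64.9 in WS. *PVALB*, the calcium buffer of fast fibers, had 3.61 FPKM in BS and 0.240 in WS. It was counted only through BS, so it could only be higher there. Of 6 counted markers of slow or heart muscle, 3 were higher in BS and 3 lower, 2 of those lower at least 2-fold, with a median of -0.36. Among these, cardiac actin *ACTC1* had 16.8 FPKM in BS, against 36.8 in WS, and *TNNT2*, the cardiac troponin T, 0.480 FPKM in BS and 2.94 in WS. *TNNT2* was counted only through WS, so it could only be lower in BS. The summed level of the slow or heart muscle list was 628 FPKM in BS, against 573 in WS. With the upper quartiles or the sums set equal, *CSRP3* and *ACTC1* were less than 2-fold lower and 5 skeletal muscle genes were 2-fold apart. At a pseudocount of 5 neither *ACTC1* (-0.94) nor *TNNT2* (-0.53) was 2-fold lower, and with no filter the median of the slow or heart muscle list was 0.05. The part of muscle RNA in the difference in *FABP3* was not tested. In bulk skin, more cells of a type and more RNA per cell cannot be told apart.

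*FABP4* and *FABP5*, the fat cell and epidermal forms in mammals, lie close together on chromosome 2 and differed by nearly the same ratio between the libraries. *FABP4* stood at 1715 FPKM in BS and 1326 in WS, a 1.29-fold difference (log2 fold change 0.37). *FABP5* stood at 308 FPKM in BS, against 240 in WS, also 1.29-fold, with a log2 fold change of 0.36. *FABP4* therefore exceeded *FABP5* 5.56-fold in BS and 5.53-fold in WS. By rank among all loci, *FABP4* was number 134 in BS and 170 in WS, and *FABP5* number 422 in BS and 544 in WS.

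Markers of the cell types for which these genes are known differed in direction. Of 6 counted adipocyte markers, 5 were higher in BS, none by 2-fold, with a median of 0.26 and a summed level of 870 FPKM in BS and 730 in WS. *LPL*, on chromosome Z, and *DGAT2*, on an unplaced contig, were listed at 0 in both. *ADIPOQ*, the fat hormone adiponectin, had 435 FPKM in BS, against 311 in WS, so that *FABP4* exceeded it 3.94-fold in BS and 4.26-fold in WS. *PLIN1*, the coat protein of lipid droplets, had 203 FPKM in BS and 223 in WS, and *FABP4* exceeded it 8.45-fold in BS and 5.95-fold in WS. *FABP4* is also made by macrophages and capillary endothelium in mammals. All 5 counted macrophage markers and 6 of 7 endothelial markers were higher in BS, with medians of 0.38 and 0.30 and summed levels of 449 and 294 FPKM in BS, against 345 and 236 FPKM in WS. Of these, only the scavenger receptor *MARCO* was 2-fold apart, at 21.8 FPKM in BS, against 9.79 in WS, and the most abundant named endothelial gene, *VWF*, had 118 FPKM in BS and 88.0 in WS. The endothelial receptor *TEK* was listed at 0 in both, as was every locus of chromosome Z, where it lies.

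All 11 counted keratinocyte markers were lower in BS, 5 of them at least 2-fold, with a median of -0.83 and a summed level of 2416 FPKM in BS, against 4744 in WS. *FABP5* was 1.29-fold higher in BS, opposite in direction to this list. Junction genes in the list included *JUP*, with 654 FPKM in BS and 1650.4 in WS in a locus that overlaps 4 others, *DSP*, with 228 and 491 FPKM, and *CDH1*, with 85.5 and 198 FPKM. *TP63*, the regulator of basal cells, had 57.2 FPKM in BS, against 123 in WS. *KRT5* and *KRT75* were listed at 0 in both libraries, on a linkage group where all loci were. With the upper quartiles or the sums set equal, *DSP* and *TP63* were just under 2-fold lower. The parts of fat, blood vessel, macrophage and epidermal RNA in the levels of *FABP4* and *FABP5* were not tested.

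Between *FABP5* and *FABP4* lies *PMP2*, which encodes the myelin P2 protein, a fatty acid-binding protein of peripheral nerve myelin, and which RefSeq now calls *FABP9* in the chicken. *PMP2* had 27.0 FPKM in BS and 1.66 in WS, a ratio of 16.3 and a log2 fold change of 3.40. Both of its FABP neighbors were 1.29-fold higher in BS. The log2 fold change of *PMP2* was 2.27 at a pseudocount of 5 and 3.95 at 0.1. In deposited coordinates *FABP5* (XLOC_008569) runs from 126080809 to 126085868, *PMP2* (XLOC_009376) from 126148186 to 126152470 and *FABP4* (XLOC_009377) from 126157832 to 126161197, and none of the 3 overlaps another locus. An unnamed locus of 328 bp between *FABP5* and *PMP2* was listed at 0 in BS and had 40.5 FPKM in WS. Beyond *FABP4*, *IMPA1*, *ZFAND1* and *CHMP4C* had log2 fold changes of 0.03, -0.21 and -0.19.

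**Figure D2:**
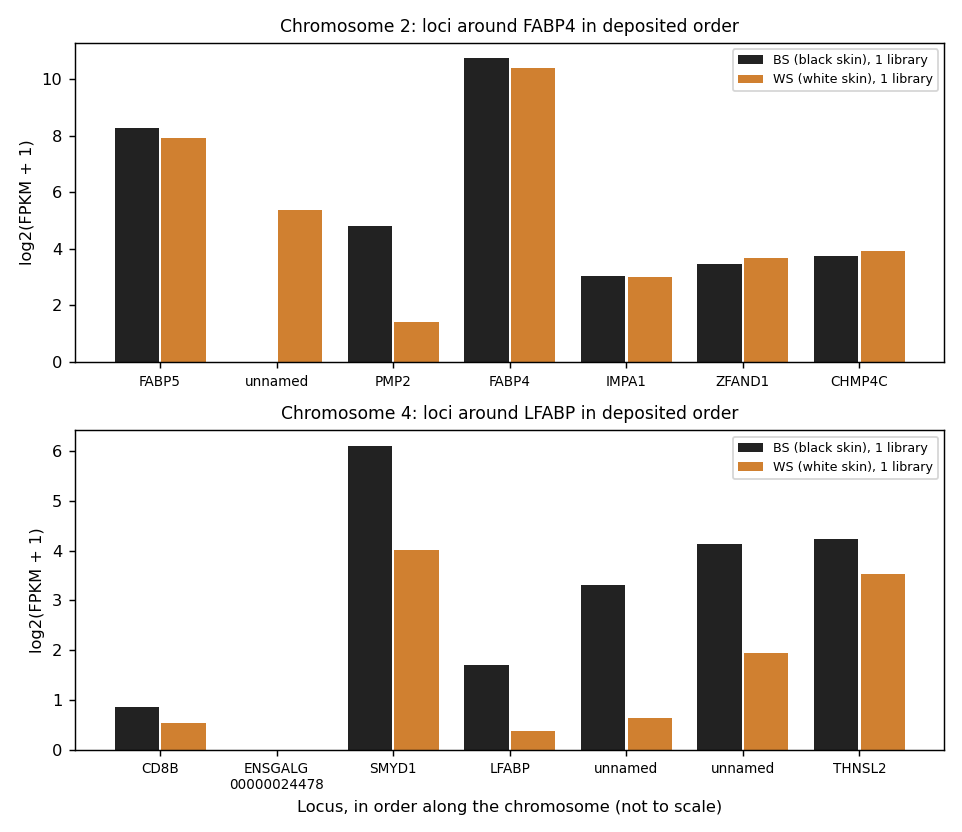
Levels, as log2(FPKM + 1), of the loci on each side of *FABP4* on chromosome 2 (top) and of *LFABP* on chromosome 4 (bottom), in their order along the chromosome and not to scale; black bars are the single BS library and orange bars the single WS library. On chromosome 2 *PMP2* stands out with 27.0 FPKM in BS, against 1.66 in WS, while *FABP5* and *FABP4* are each 1.29-fold higher in BS, and on chromosome 4 *LFABP* and the loci directly beside it are higher in BS.

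*FABP7*, the brain-type form found in radial glia and early Schwann cells of mammals and birds, had 14.9 FPKM in BS and 9.19 in WS. This was 1.62-fold higher in BS, with a log2 fold change of 0.64, the largest among the 5 counted members other than *FABP1*. The locus (XLOC_014000) lies on chromosome 3 from 63843219 to 63846667 and overlaps no other. Its neighbor *ENSGALG00000014864*, which ends at 63840973, had 12.6 FPKM in BS and 8.48 in WS, a log2 fold change of 0.52. An unnamed locus on the other side had 5.65 FPKM in BS, against 5.04 in WS, a log2 fold change of 0.14. All 8 counted Schwann cell and glia markers were higher in BS, 3 of them at least 2-fold, with a median of 0.76 and a summed level of 436 FPKM in BS, against 268 in WS. These 3 were *NGFR*, the low-affinity neurotrophin receptor, with 25.6 FPKM in BS and 7.21 in WS, *SOX10*, a factor of glia and melanocytes, with 28.7 FPKM in BS, against 11.2 in WS, and *MBP*, a myelin protein, with 122 FPKM in BS and 50.9 in WS in a locus that overlaps another. The glial marker *GFAP*, with 1.47 FPKM in BS and 0.564 in WS, was counted only through BS, so it could only be higher there. Melanocyte markers had a median of 1.56, with *MLPH* at 20.7 FPKM in BS, against 3.29 in WS and *DCT* at 31.2 and 9.21 FPKM. *TYR* had 8.17 FPKM in BS and 0.957 in WS, and *EDNRB2* had 55.8 FPKM in BS, against 15.5 in WS. Of these, *TYR* passed the filter only through BS. *MITF*, the 1 counted melanocyte marker that was lower in BS, had 26.9 FPKM in BS and 30.4 in WS. The medians of both lists lay above the value of *FABP7*, and *PMP2*, the other gene of the family known from nerve, was higher by more than every marker of the glial list. The part of glial and pigment cell RNA in *FABP7* and *PMP2* was not tested.

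The locus deposited as *FABP1* was the 1 member at least 2-fold apart. It had 6.35 FPKM in BS and 0.812 in WS, a ratio of 7.81 and a log2 fold change of 2.02. It (XLOC_011432) lies on chromosome 23 from 5902056 to 5904574 and overlaps no other locus. Its immediate neighbors did not share the direction. *SFRS13A* had 36.7 FPKM in BS, against 38.7 in WS, and the merged locus of *IL22RA1* and *MYOM3* had 3.49 FPKM in BS and 7.77 in WS.

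By gene order, this locus matched another gene than the one that RefSeq calls *FABP1* in the chicken. Among the 10 genes on each side, it shares 14 named neighbors, *PNRC2* and *MYOM3* among them, with RefSeq's *LBFABP* on chromosome 23. *LBFABP*, also called *FABP10*, encodes the liver basic FABP of birds and other non-mammals, which binds bile acids. RefSeq's *FABP1* lies on chromosome 4 and shares none of these neighbors. It shares 6, *SMYD1* and *THNSL2* among them, with a locus deposited as *LFABP*, a name RefSeq lists as a synonym of *FABP1*. *LFABP* (XLOC_015996, chromosome 4 from 89155942 to 89159673) was added after its values were seen. It had 2.26 FPKM in BS, against 0.287 in WS, a ratio of 7.88 and a log2 fold change of 1.34. Whichever locus is taken for *FABP1*, 1 of the 6 counted members was at least 2-fold higher in BS, and either locus passed the filter only through BS. The other 6 symbols each matched the RefSeq gene of the same name on the same chromosome, with 7 to 11 shared neighbors.

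Both liver-type genes were higher in BS, as were 5 of 6 counted hepatocyte markers. Of the 6, 4 were at least 2-fold higher in BS, with a median of 1.27 and a summed level of 85.2 FPKM in BS and 31.2 in WS. Both liver-type genes and the markers *AHSG*, *FGA* and *FGB* passed the filter only through BS, and a locus counted that way can only be higher in BS. The median of the list was 0.40 at a pseudocount of 5 and 1.87 at a minimum of 5 FPKM. *ALB*, serum albumin, had 25.7 FPKM in BS, against 3.98 in WS, and *TTR*, the thyroid hormone carrier transthyretin, had 46.4 FPKM in BS and 12.003 in WS. *AHSG* and *FGA*, both plasma proteins, had 2.34 and 1.42 FPKM in BS, against 0.337 and 0.0421 FPKM in WS. *FGG*, another fibrinogen chain, went the other way with 7.04 FPKM in BS, against 14.0 in WS. *HNF4A*, a transcription factor that defines hepatocytes, stood at 0.0343 FPKM in BS and at 0 in WS. The part of RNA from other cells in the liver-type genes was not tested.

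The loci beside *LFABP* on chromosome 4 were higher in BS as well. *SMYD1*, a muscle methyltransferase gene that ends just before *LFABP*, had 68.0 FPKM in BS and 15.1 in WS. On the other side, unnamed loci of 880 bp and 416 bp had 8.90 and 16.6 FPKM in BS, against 0.549 and 2.84 FPKM in WS. *THNSL2*, the next named gene, had 17.9 FPKM in BS, against 10.6 in WS. *LFABP* was the lowest of these loci in both libraries, and reads that extend from a neighbor into it cannot be told apart from its own in values per locus.

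The intestinal members stood low in both libraries. *FABP2* had 0.0681 FPKM in BS and 0.0892 in WS, on chromosome 4 from 56264370 to 56267335 (XLOC_015199), where the authors' table marks the locus as untested. It was the only member under 1 FPKM in both libraries and the only one with a lower value in BS, and it was not counted. Of 6 enterocyte markers listed, 2 reached 1 FPKM, and the list had a summed level of 4.56 FPKM in BS, against 18.5 in WS. Those 2 were *LCT*, lactase, with 0.755 FPKM in BS and 8.80 in WS, and *SLC5A1*, a sodium/glucose cotransporter, with 3.12 FPKM in BS, against 8.24 in WS. *LCT* was counted only through WS, so it could only be lower in BS. *CDX2*, which defines the intestinal epithelium, was listed at 0 in both, and so was *MTTP*. They lie on chromosomes 1 and 4, where other loci had values above 0.

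*FABP6*, the ileal bile acid carrier also called gastrotropin, had 6.37 FPKM in BS and 4.98 in WS. This was 1.28-fold higher in BS, with a log2 fold change of 0.30, the smallest among the counted members. Its deposited locus (XLOC_005308) on chromosome 13 runs from 7611455 to 7672016, a span of 60561 bp that is identical to that of *CCNJL*, so the span is not that of *FABP6* alone. *CCNJL* had 0.651 FPKM in BS, against 0.532 in WS. Of the other genes of bile acid handling, 3 of 7 listed were counted and all 3 were lower in BS, none by 2-fold, with a median of -0.57. The most abundant, the export subunit gene *SLC51A*, had 12.2 FPKM in BS and 18.5 in WS, in a locus that overlaps another. *CYP27A1* had 11.2 FPKM in BS, against 17.7 in WS, in a locus that overlaps 15 others. *ABCB11* had 3.48 FPKM in BS and 4.18 in WS, also in a locus that overlaps another. The uptake transporters *SLC10A1* and *SLC10A2* were listed at 0 in both libraries.

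Set against all loci, 6 of the 7 members passed the filter of 1 FPKM and all 6 were higher in BS, where 43.9% of all counted loci and 45.6% of loci with a gene symbol were. Of the 6, 1 was at least 2-fold higher and none was at least 2-fold lower, where 4.61% and 5.69% of all loci (10.3% together) and 2.94% and 2.34% of loci with a symbol (5.28% together) were. That 1 was *FABP1*, with 6.35 FPKM in BS and 0.812 in WS. It passed the filter only through BS, so it could only be higher there, and at a pseudocount of 5 it was at 0.97, short of 2-fold. The median log2 fold change of the 6 was 0.42, where that of all loci was -0.06 and that of loci with a symbol -0.04. Apart from *FABP1*, the members lay between 0.30 and 0.64, inside the range from -1.05 to 0.96 that holds the central 90% of loci. With 6 genes and 1 library per color, no error can be put on this median.

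**Figure D3:**
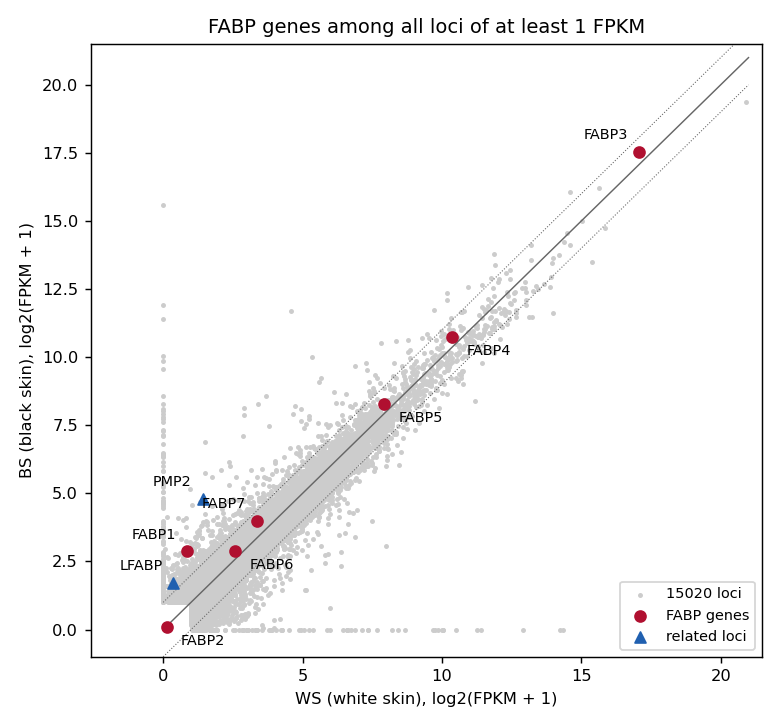
Level in BS (vertical) against level in WS (horizontal), both as log2(FPKM + 1), for the 15020 loci of at least 1 FPKM in the higher library (gray), the 7 FABP genes (circles, *FABP2* below the filter) and 2 related loci (triangles); the solid line marks equal levels and the dotted lines a 2-fold difference. *FABP3* to *FABP7* lie just above the line of equal levels, and *FABP1*, *LFABP* and *PMP2* lie above the 2-fold line.

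The direction of the 6 counted members was the same under all 9 settings, but these settings could not have changed it. A pseudocount or a filter leaves the sign of a gene's fold change as it is. All 3 scalings raise BS, and each member has only 1 locus, so summing loci changes nothing. The settings therefore bear on the size of the differences only. The log2 fold change of *FABP3* stayed between 0.47 and 0.61, that of *FABP4* between 0.37 and 0.51, and that of *FABP5* between 0.36 and 0.50. *FABP7* ranged between 0.49 and 0.77 and *FABP6* between 0.19 and 0.42. *FABP1* depended most on the pseudocount, with 2.82 at a pseudocount of 0.1 and 0.97, just short of 2-fold, at a pseudocount of 5. At a pseudocount of 5 *LFABP* was at 0.46. Both liver-type genes were under 1 FPKM in WS.

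**Figure D4:**
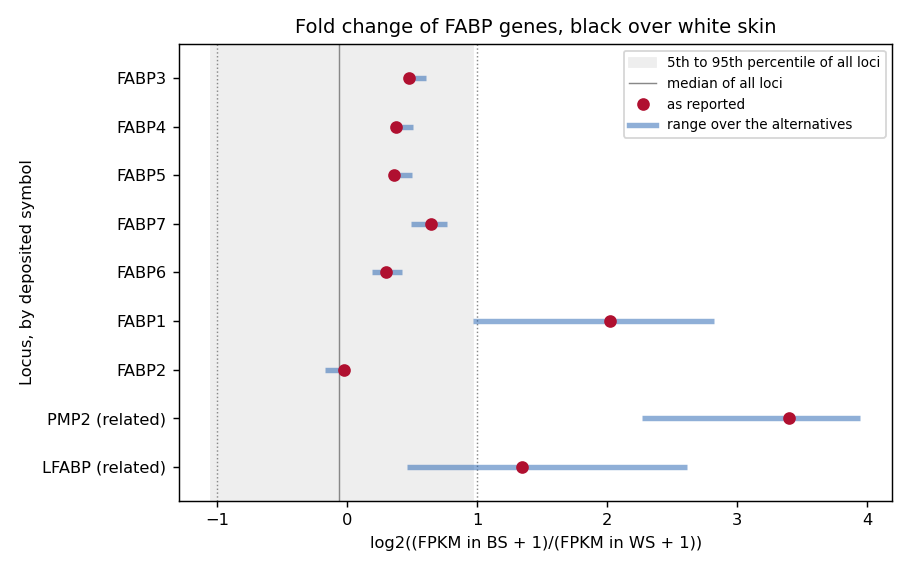
Log2 fold change of BS over WS, with a pseudocount of 1, for the 7 FABP genes and 2 related loci (points), with the range over the alternative settings (bars), the central 90% of all loci (shaded), their median (solid line) and the 2-fold limits (dotted lines). *FABP3* to *FABP7* lie between 0.30 and 0.64 inside the shaded range, and the bar of *FABP1* runs from 0.97 to 2.82.

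Other genes that handle lipids were counted in the same way. The other intracellular lipid-binding proteins, which have the same fold as FABPs and carry retinoids or fatty acids, had 4 counted genes, of which *PMP2* and *CRABP1* were at least 2-fold higher in BS, with a median of 0.78. The median was 1.39 at a pseudocount of 0.1, 0.30 at a pseudocount of 5, where *CRABP1* was at 0.54, and 0.07 at a minimum of 5 FPKM, which *CRABP1* did not reach. *CRABP1*, a retinoic acid carrier, had 2.73 FPKM in BS, against 0.331 in WS. It passed the filter only through BS, so it could only be higher there. The retinol carriers *RBP5* and *RBP7* had 87.4 and 156 FPKM in BS, against 83.5 and 189 FPKM in WS, and *RBP2* was listed at 0 in both. The summed level of the list was 273 FPKM in BS and 275 in WS, against 192196 and 138476 FPKM for the FABPs.

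Of 7 counted carriers of acyl-CoA and sterols, 6 were lower in BS, none by 2-fold, with a median of -0.17. *DBI*, the acyl-CoA-binding protein, had 239 FPKM in each library, close to the level of *FABP5* in WS. Of 10 counted genes of fatty acid uptake and activation, 5 were higher and 5 lower in BS, none by 2-fold, with a median of -0.01. The most abundant, *CAV1*, the coat protein of caveolae, had 588 FPKM in BS, against 407 in WS, and *CD36*, the fatty acid translocase, had 69.8 FPKM in BS and 64.8 in WS. Transporters *SLC27A1*, on an unplaced contig, and *SLC27A6*, on chromosome Z, were listed at 0 in both.

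Of 7 counted nuclear receptors and coactivators for lipid ligands, 5 were lower in BS and 2 higher, none by 2-fold, with a median of -0.14. *RXRA*, the partner of PPARs on DNA, had 50.6 FPKM in BS, against 81.5 in WS, in a locus that overlaps another. *PPARG*, the receptor that *FABP4* serves in mammalian fat cells, had 6.42 FPKM in BS and 3.55 in WS, and *PPARD*, which *FABP5* serves in mammalian keratinocytes, had 18.7 FPKM in BS, against 20.3 in WS. Of 9 counted genes of fatty acid oxidation and other PPAR targets, 4 were higher and 5 lower in BS, none by 2-fold, with a median of -0.17. *ACADL*, a mitochondrial acyl-CoA dehydrogenase, had 134 FPKM in BS and 119 in WS. With the libraries scaled otherwise, the medians of these 4 lists lay between -0.10 and 0.13, and that of uptake and activation was positive. The PPAR target *PLIN2* was listed at 0 in both libraries, as was every locus of chromosome Z.

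**Figure D5:**
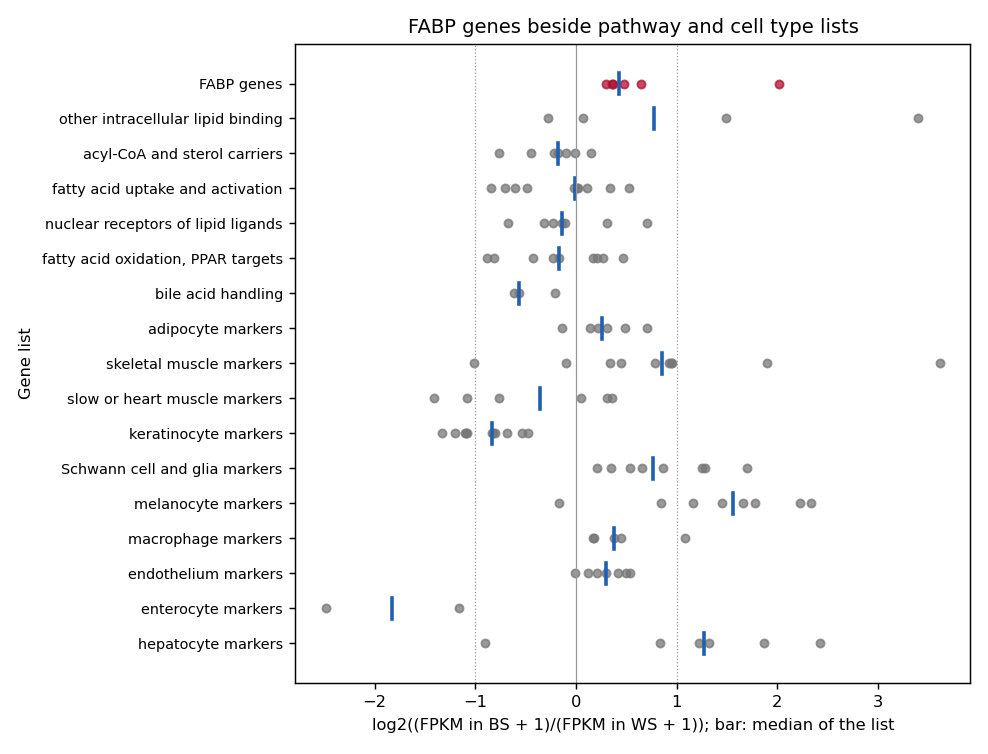
Log2 fold change of BS over WS, with a pseudocount of 1, for each counted gene (points) and the median (bars) of the FABP genes and of 16 pathway and cell type lists; dotted lines mark 2-fold. The FABP genes have a median of 0.42, and the 4 lists of carriers, uptake, receptors and oxidation have medians between -0.17 and -0.01. Melanocyte, hepatocyte and keratinocyte markers have medians of 1.56, 1.27 and -0.83. The lowest median, -1.82, is that of the enterocyte markers, with only 2 counted genes.

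The genes most like each member over the 2 libraries were found by distance in log2(FPKM + 1). *FABP3* had no near match, since its closest, *RPS27L*, lay 1.93 away, with 76707 FPKM in BS, against 51014 in WS, followed by *ATPIF1* at 2.86. For the other 5 counted members the 3 closest genes lay within 0.32. *FABP4* was closest to *BLB1*, *UBB* and *TPM1*, all in loci that overlap others, and *FABP5* to *RPL22L1*, *NDUFA11* and *SAT1*. *FABP7* was closest to *ATP2B1*, *RGS19* and *USP13*, *FABP6* to *LPCAT1*, the microRNA locus *gga-mir-6584* and *KLHL34*, and *FABP1* to *LECT2*, *CYYR1* and *HIST2H2AC*. *LECT2*, *CYYR1* and *HIST2H2AC* had 5.35, 6.83 and 7.78 FPKM in BS, against 0.627, 1.15 and 1.07 FPKM in WS. They were picked for values close to those of *FABP1*, so their direction is no separate result. *LECT2* also passed the filter only through BS. With only 2 libraries, such likeness rests on 2 values per gene.

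*EX-FABP*, the extracellular FABP, is by its fold a lipocalin and not a member of the family, and was added for its name after its values were seen. It is secreted and in chickens binds bacterial siderophores and lipids. It had 70.8 FPKM in BS, against 49.1 in WS, a log2 fold change of 0.52, on chromosome 17 from 879210 to 884051 with no overlapping locus.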

How the data were processed

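Skin RNA of 3 females per color was pooled into 1 library, so each group holds 1 sample. The authors mapped reads with Bowtie, and Cuffdiff and galGal4 are listed in the submitters' notes on processing; versions of these tools are not given in the sources used here. The paper's methods give a reference file of another name. The deposited values are FPKM per locus. The deposited coordinates reach 200985987 on chromosome 1, past the end of that chromosome in galGal4, so they are printed as deposited with the build unsettled. The authors' fold changes, test statistics, p-values, q-values and marks of significance were not used, nor was their second table, which holds a subset of the same loci with the same FPKM. The 5 loci marked as failed were dropped. Log2 fold changes used a pseudocount of 1, for loci that reached 1 FPKM in at least 1 library. Where loci shared a symbol, the one with the highest mean was taken. Names were compared by gene order with RefSeq's GRCg7b table, of which no coordinates are printed.

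The members and the 16 gene lists were chosen with earlier results of these data known. By rule, named genes were all members, loci that overlap them, up to 4 members of each list at least 2-fold apart or else its most abundant gene, and the 3 genes closest in level to each counted member. Others, such as *PLIN1*, *CD36*, *PPARG*, *FGG* and chromosome neighbors, were added with their values in view. Some genes that the rule names are not reported here. The alternatives tried were pseudocounts of 0.1 and 5, no filter or 5 FPKM, 3 scalings and sums over loci of a symbol. The code was tested on simulated data. Python 3.11.15, pandas 2.3.3, numpy 2.4.6 and matplotlib 3.10.9 were used.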

Additional observations from a re-analysis of the deposited data

How the results depend on the processing

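Of 605 values recomputed under the alternatives, none changed sign among those at least 2-fold apart. For single genes this was fixed in advance. A pseudocount or a filter cannot change the sign of a gene, and the largest scaling shift was 0.13 on the log2 scale. The count of FABP members at least 2-fold apart, 1 as reported, was 0 at a pseudocount of 5, where *FABP1* was at 0.97, and 3 with *LFABP* and *PMP2* added, a choice made after seeing the data. The median of the members was positive in all 11 settings, which also could not have come out otherwise, since no setting could turn a counted member negative. Loci at least 2-fold higher and lower in BS, 693 and 855 as reported, were 1198 and 1559 at a pseudocount of 0.1, 287 and 306 at a pseudocount of 5, and 447 and 487 at a minimum of 5 FPKM. Scalings moved the share of higher calls from 44.8% to at most 56.4%. Counts at least 2-fold apart moved by over 1.5 times for these lists, among others: skeletal muscle (3, against 5 with upper quartiles or sums set equal and 1 at a pseudocount of 5), keratinocytes (5, against 2 with the same scalings), slow and heart muscle (2, against 1 with the same scalings or a minimum of 5 FPKM and 0 at a pseudocount of 5) and hepatocytes (4, against 2 at a pseudocount of 5 or a minimum of 5 FPKM). At a pseudocount of 5 the count was 1 for enterocytes and for other lipid-binding proteins (2 each as reported), and 0 for macrophages (1 as reported). No paired analysis was possible because each color has 1 library. With no read counts and no replicates, neither counting error nor variation between birds could be given for any FABP gene.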
